A study of Mus musculus with 6 samples.

Results

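The genes described here are those of glycolysis, lactate production and transport, and the response to low oxygen, in TM4 cells kept with aluminium chloride. They were chosen by name. Of 37 names, 36 have a row in the expression table, and Aldoa, which stands under 2 identifiers, brings the rows to 37 of 24354. TM4 is an established line from mouse testis that is used as a model of Sertoli cells, the somatic cells that nurse developing germ cells. RNA-seq was done on 3 libraries of TM4 cells given 100 nM AlCl3 and on 3 libraries of control TM4 cells, both at day 30. All libraries come from this single line, grown in a serum-containing medium, and no vehicle is named for the control. Whether replicates came from separate cultures is not stated in the labels, and the p-values thus reflect the spread among these libraries, possibly technical.

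Glycolysis turns glucose into pyruvate in the cytosol. Glucose transporters bring glucose in, hexokinase and phosphofructokinase commit it to the pathway, the later enzymes yield ATP, and lactate dehydrogenase turns pyruvate into lactate, which monocarboxylate transporters carry across the cell membrane. Sertoli cells are known for making lactate that germ cells take up as fuel. Hypoxia-inducible factor (HIF) is a transcription factor whose alpha subunits are hydroxylated by oxygen- and iron-dependent prolyl hydroxylases and then degraded, and many glycolytic genes and several genes of other functions are known HIF targets.

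Levels are given in FPKM, reads scaled to gene length and library size, as the authors deposited them, and the libraries of a group are always listed as replicate 1, 2 and 3. Library sizes implied by the FPKM values ran from 13583554 reads in AlCl3 2 to 17608615 reads in AlCl3 1, and 3 reads in a gene of 1 kb were worth between 0.170 and 0.221 FPKM, for counting error only. AlCl3 2, the least deep library, stood apart in these genes. It was the highest of its group in 25 of the 31 rows tested (80.6%), against 38.5% of all genes tested, and its median log2 difference from the other AlCl3 libraries was 0.38 in these rows and -0.01 over all genes. Of 20 Sertoli markers, 17 had a row, while Fshr, Dmrt1 and Cldn11 had none. Of these 17, 10 were tested, of which 3 rose and 5 fell (80.0% called, against 61.3% of all genes tested). Their summed level was 392 to 434 FPKM in AlCl3 and 289 to 414 FPKM in control libraries. Most of that sum was Vim, with 341 FPKM in AlCl3 and 243 FPKM in control libraries, and Inhbb averaged 46.0 FPKM in AlCl3 and 72.1 FPKM in control libraries. Wt1 averaged 0.0163 FPKM in AlCl3 and 0.146 FPKM in control libraries, Amh 0.173 FPKM in AlCl3 and 0.0470 FPKM in control, Sox9 1.61 FPKM in AlCl3 and 1.01 FPKM in control, and Gata4 6.33 FPKM in AlCl3 and 11.6 FPKM in control. Among the 10 tested, the largest falls on the log2 scale of FPKM + 1 were those of Dhh (-1.32) and Inha (-1.09). Dhh averaged 0.160 FPKM in AlCl3 and 1.90 FPKM in control, and Inha 1.56 FPKM in AlCl3 and 4.54 FPKM in control. Dhh reached the mean of 1 FPKM needed for testing through the control libraries alone. Gata1, Nr5a1, Clu and Trf were too low to be tested. Smooth muscle markers, mostly Acta2 and Myl9, summed to 282 to 320 FPKM in AlCl3 and 672 to 705 FPKM in control libraries. Both of these were lower among the 3 tested. Macrophage markers, mostly Cd14, summed to 31.0 to 33.4 FPKM in AlCl3 and 8.18 to 10.1 FPKM in control libraries, with 1 of the 2 tested higher. Leydig markers, mostly Nr2f2, summed to 7.77 to 10.4 FPKM in AlCl3 and 10.8 to 13.6 FPKM in control libraries, with Nr2f2, the 1 tested, lower. Germ cell markers stayed at or under 0.318 FPKM in AlCl3 and 0.394 FPKM in control libraries, and retina markers, examined because the extraction text mentions retinas, at or under 0.261 FPKM in AlCl3 and 0.194 FPKM in control libraries. No row was found for 3 of 7 Leydig, 2 of 7 macrophage, 5 of 9 germ cell and 4 of 10 retina names, whose levels are thus not known. No marker with a row was at 0 in all 6 libraries. The part of these markers in the results below was not tested.

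In AlCl3 libraries the glucose transporter Slc2a1, hexokinase 2, triose phosphate isomerase, most enzymes of the second stretch of glycolysis, and Ldha rose, by 1.70-fold to 2.66-fold in mean FPKM. Muscle-type phosphofructokinase, Pfkfb3, neuron-type enolase and the lactate transporter chaperone Bsg fell, by 1.81-fold to 3.16-fold. The hypoxia genes did not move one way: Bnip3 rose, Ndrg1 and Ero1a fell, and the HIF and prolyl hydroxylase genes tested did not pass the threshold. Of the 37 rows, 31 passed a filter set at a mean of 1 FPKM over the 6 libraries and 6 did not. Of these 31, 11 were higher, 7 lower and 13 not past an adjusted p of 0.05 (limma on log2(FPKM + 1), Benjamini-Hochberg over the 11202 genes tested). That is 58.1% called, against 61.3% of all genes tested (31.2% higher and 30.2% lower), so the share called was near the background. The median log2 fold change was 0.31 in the 31 rows and 0.03 over all genes. Without AlCl3 2 it was 0.08 in these rows, with 10 higher and 8 lower of 29, against 3607 and 3460 of 11230 over all genes. Since the RNA is from whole cultures, fewer cells of a type and less RNA per cell cannot be told apart.

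**Figure D1:**
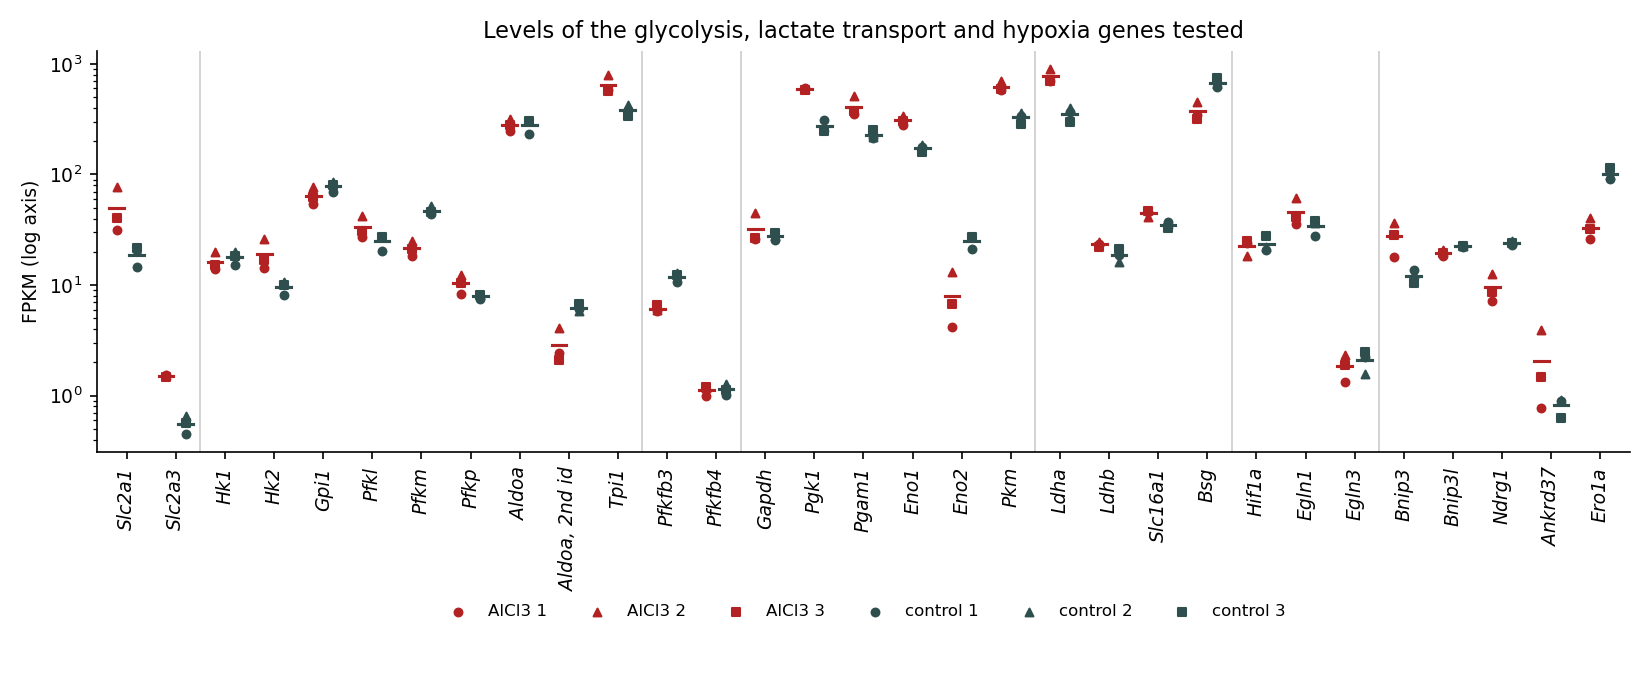
FPKM (log axis) of the 31 rows tested, in pathway order from left to right with vertical lines between steps. Each point is a library, AlCl3 (red) left of control (dark grey), and bars are group means. Pgk1 sits at 580 to 605 FPKM in AlCl3 and 250 to 310 FPKM in control, and Ero1a at 26.3 to 40.2 FPKM in AlCl3 and 90.4 to 113 FPKM in control.

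HIF binds short core sequences, so the promoters of several members the results turn on are shown here, 4 from genes that rose and 2 from genes that fell. Sequences are RefSeq promoter windows of GRCm38.p6, from 250 bases before to 50 bases after the annotated start, on the strand of the gene. The windows are Slc2a1 at chr4:119108495-119108794 (plus), Pgk1 at chrX:106186850-106187149 (plus), Ldha at chr7:46845554-46845853 (plus), Bnip3 at chr7:138909457-138909756 (minus), Pfkfb3 at chr2:11502041-11502340 (minus) and Ero1a at chr14:45318523-45318822 (minus). Capitals mark the HIF core, ACGTG or GCGTG, on either strand (CACGT or CACGC where it lies on the other strand).
Slc2a1: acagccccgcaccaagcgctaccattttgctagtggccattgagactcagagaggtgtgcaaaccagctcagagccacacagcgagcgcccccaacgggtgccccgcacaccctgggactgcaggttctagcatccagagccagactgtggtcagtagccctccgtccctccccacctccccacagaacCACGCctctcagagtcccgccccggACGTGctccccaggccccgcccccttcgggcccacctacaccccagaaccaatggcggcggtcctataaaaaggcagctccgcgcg
Pgk1: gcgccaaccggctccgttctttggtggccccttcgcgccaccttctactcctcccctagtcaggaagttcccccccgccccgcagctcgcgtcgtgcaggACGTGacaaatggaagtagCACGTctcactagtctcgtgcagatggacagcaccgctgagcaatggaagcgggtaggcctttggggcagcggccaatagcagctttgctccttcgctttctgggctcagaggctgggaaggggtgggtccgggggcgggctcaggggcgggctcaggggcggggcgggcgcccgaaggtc
Ldha: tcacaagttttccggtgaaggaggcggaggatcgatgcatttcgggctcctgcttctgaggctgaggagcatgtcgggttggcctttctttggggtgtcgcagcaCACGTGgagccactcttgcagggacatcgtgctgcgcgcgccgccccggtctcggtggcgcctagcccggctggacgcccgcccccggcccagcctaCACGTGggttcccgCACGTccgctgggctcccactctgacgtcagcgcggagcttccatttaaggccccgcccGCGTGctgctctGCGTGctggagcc
Bnip3: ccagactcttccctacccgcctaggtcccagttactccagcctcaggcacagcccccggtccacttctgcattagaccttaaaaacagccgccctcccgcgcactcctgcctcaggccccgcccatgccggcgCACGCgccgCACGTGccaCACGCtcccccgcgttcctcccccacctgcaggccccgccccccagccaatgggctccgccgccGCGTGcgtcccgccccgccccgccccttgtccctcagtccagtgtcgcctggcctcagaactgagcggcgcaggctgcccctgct
Pfkfb3: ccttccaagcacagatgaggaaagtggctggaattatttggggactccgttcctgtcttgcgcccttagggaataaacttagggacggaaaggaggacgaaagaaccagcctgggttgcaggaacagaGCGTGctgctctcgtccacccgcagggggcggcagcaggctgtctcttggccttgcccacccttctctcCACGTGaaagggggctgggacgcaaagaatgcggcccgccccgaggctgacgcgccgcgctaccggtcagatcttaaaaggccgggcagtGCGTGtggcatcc
Ero1a: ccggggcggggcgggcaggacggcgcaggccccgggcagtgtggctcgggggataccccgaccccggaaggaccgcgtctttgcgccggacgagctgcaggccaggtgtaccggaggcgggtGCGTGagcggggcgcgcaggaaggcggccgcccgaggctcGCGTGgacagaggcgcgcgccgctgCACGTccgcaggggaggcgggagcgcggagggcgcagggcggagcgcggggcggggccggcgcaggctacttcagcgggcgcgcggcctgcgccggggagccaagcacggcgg
The 2 cores of Pgk1 both read ACGTG, on opposite strands. In Ldha, Bnip3 and Pfkfb3 the palindrome CACGTG holds a core on each strand and was counted as 2, which brings Ldha to 7, Bnip3 to 5 and Pfkfb3 to 4. The lower gene Ero1a holds 3 cores, against 2 each in Slc2a1 and Pgk1. All windows shown hold a core, but not all called members do. The windows of Pkm and Tpi1, which rose, and of Eno2, which fell, hold none.

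Over the members, 32 genes had a promoter in the table, taking for each gene the window nearest to most annotated transcript starts. ACGTG on either strand was present in 19 of 32 (59.4%), against 27.3% of the 8131 promoters of genes tested and 19.6% of all 32851 promoters. GCGTG was present in 18 of 32 (56.3%), against 54.3% and 32.4% of the same sets. At least 1 core of either kind was present in 27 of 32 (84.4%), against 66.0% of the promoters of genes tested. This held for 8 of 10 higher members and 3 of 4 lower members. ACGTG was present in 7 of 10 promoters of higher members, 3 of 4 of lower members, 6 of 12 of members not called and 3 of 6 of members below the filter. A match describes letters in a window and is not a binding site. The members were chosen by name and many are known HIF targets, so their shares describe that choice and not an effect of AlCl3. The 32 also include the 6 members below the filter, unlike the promoters of genes tested.

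Glucose uptake is carried out by the facilitative transporters Slc2a1 (GLUT1), the widespread form, and Slc2a3 (GLUT3), which has a high affinity for glucose. Slc2a1 had 31.2, 77.8 and 40.8 FPKM in AlCl3 libraries, against 14.6, 20.3 and 21.5 FPKM in control libraries. The groups did not overlap, which also held for 66.1% of all genes tested (33.7% with AlCl3 above and 32.4% with AlCl3 below), and AlCl3 2 stood well above the other AlCl3 libraries. The means were 49.9 ± 24.6 FPKM in AlCl3 and 18.8 ± 3.65 FPKM in control (SD, n = 3 each), 2.66-fold higher, with a log2 fold change of FPKM + 1 of 1.27 (SE 0.29, limma adjusted p = 0.0043). Without AlCl3 2 the log2 fold change was 0.91. Slc2a1 (ENSMUSG00000028645) lies on the plus strand of chromosome 4 from 119108711 to 119137983 in GRCm38. Slc2a3 had 1.54, 1.53 and 1.47 FPKM in AlCl3 libraries, against 0.449, 0.654 and 0.563 FPKM in control libraries. Its AlCl3 values lay close together and above all control values, and it rose with a log2 fold change of 0.69 (SE 0.12, limma adjusted p = 0.00076). Slc2a3 passed the filter through the AlCl3 libraries alone, its control mean being 0.555 FPKM, and it fell under the filter when any single AlCl3 library was left out.

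In the first stretch of glycolysis, 9 of 10 rows were tested, of which 2 rose and 2 fell (44.4% called, against 61.3% of all genes tested). Hexokinase traps glucose as glucose phosphate. Hk2, the inducible form, had 14.2, 26.3 and 17.0 FPKM in AlCl3 libraries, against 8.07, 10.6 and 9.95 FPKM in control libraries. All AlCl3 values lay above the control values, and the mean rose 2.01-fold, to 19.2 ± 6.36 FPKM in AlCl3 against 9.54 ± 1.31 FPKM in control, a log2 fold change of 0.90 (SE 0.21, limma adjusted p = 0.0044). Hk1, the housekeeping form, had 13.9, 19.9 and 15.1 FPKM in AlCl3 libraries, against 15.1, 20.1 and 18.4 FPKM in control libraries, and did not pass the threshold (log2 fold change -0.13, limma adjusted p = 0.50). Hk2 therefore made up 53.5% ± 3.33 of the summed FPKM of Hk1 and Hk2 in AlCl3 and 34.8% ± 0.254 in control (SD, n = 3 each), without overlap (exact two-sided permutation p = 0.1, the smallest that 3 against 3 values allow).

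Gpi1, which converts glucose phosphate to fructose phosphate, averaged 64.4 ± 11.1 FPKM in AlCl3 and 78.8 ± 8.35 FPKM in control. Its log2 fold change of -0.30 missed the threshold (limma adjusted p = 0.12) and passed it without AlCl3 2 (adjusted p = 0.031). Phosphofructokinase, the main control point of the pathway, has liver, muscle and platelet forms. Muscle-type Pfkm had 18.4, 24.8 and 21.4 FPKM in AlCl3 libraries, against 43.5, 51.8 and 45.9 FPKM in control libraries. Every AlCl3 library was well below every control library, and Pfkm fell 2.19-fold, with a log2 fold change of -1.10 (SE 0.14, limma adjusted p = 0.00012). Pfkm (ENSMUSG00000033065) lies on the plus strand of chromosome 15 from 98092589 to 98132451 in GRCm38.

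Liver-type Pfkl had 27.2, 42.5 and 31.0 FPKM in AlCl3 libraries, against 20.5, 27.2 and 27.5 FPKM in control libraries, and platelet-type Pfkp had 8.40, 12.3 and 10.4 FPKM in AlCl3 libraries, against 7.43, 8.21 and 8.18 FPKM in control libraries. Neither passed the threshold (log2 fold changes 0.39 and 0.33, limma adjusted p = 0.086 and 0.070), though both did without AlCl3 1 (adjusted p = 0.046 and 0.030), and Pfkl did with a trend of GC content and length removed (0.76, adjusted p = 0.0014). Pfkp shares 748 exon bases with Pitrm1 on the opposite strand, whose reads were 5505 in AlCl3 and 4382 in control, and the strand setting of the counting is not given in the sources used here. Pfkm made up 33.1% ± 1.66 of the summed FPKM of the 3 forms in AlCl3 and 58.9% ± 2.38 in control. The share of Pfkl was 51.1% ± 2.04 in AlCl3 and 31.2% ± 2.52 in control. The groups did not overlap in either share (exact two-sided permutation p = 0.1 for each). The form with the highest FPKM was thus Pfkl in each AlCl3 library and Pfkm in each control library. The order of the forms depends on their exon lengths, 3340 bases for Pfkm and 6675 bases for Pfkl. In reads, control libraries held 2414, 2923 and 2666 of Pfkm, against 2271, 3066 and 3193 of Pfkl. The sum of the 3 forms was 65.4 ± 13.0 FPKM in AlCl3 and 80.1 ± 7.99 FPKM in control, and the groups overlapped (exact p = 0.2).

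Aldolase splits the hexose into triose phosphates. The main identifier of Aldoa (ENSMUSG00000030695) had 247, 318 and 279 FPKM in AlCl3 libraries, against 233, 306 and 306 FPKM in control libraries, with means of 281 ± 35.7 FPKM in AlCl3 and 282 ± 42.4 FPKM in control and a fitted log2 difference of 0.00 (limma adjusted p = 0.99). With a trend of GC content and length removed it was 0.43 (adjusted p = 0.010). The other Aldoa identifier (ENSMUSG00000114515) is a model with 799 exon bases on the minus strand of chromosome 7, from 126800790 to 126809108. It lies upstream of the main one, which spans 126795234 to 126800751 on the same strand. This other identifier had 2.42, 4.05 and 2.11 FPKM in AlCl3 libraries, against 6.03, 5.78 and 6.69 FPKM in control libraries. It fell with a log2 fold change of -0.92 (SE 0.18, limma adjusted p = 0.0017; -0.44 with the GC and length trend removed), on 107 reads in AlCl3 and 251 reads in control. Aldoc, the brain-type aldolase, held 3, 4 and 6 reads in AlCl3 libraries, against 2, 0 and 1 reads in control libraries, and was under the filter. Tpi1, which interconverts the triose phosphates, had 582, 791 and 571 FPKM in AlCl3 libraries, against 384, 423 and 339 FPKM in control libraries. It rose 1.70-fold without overlap, with a log2 fold change of 0.75 (SE 0.18, limma adjusted p = 0.0053).

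The PFKFB enzymes make and break fructose bisphosphate of the regulatory kind, the strongest activator of phosphofructokinase. Pfkfb3, the form with the highest kinase activity relative to its phosphatase activity, had 5.81, 6.02 and 6.59 FPKM in AlCl3 libraries, against 10.7, 12.8 and 12.2 FPKM in control libraries. It fell 1.94-fold, with a log2 fold change of -0.85 (SE 0.12, limma adjusted p = 0.00021), and its AlCl3 values lay close together below all control values. Pfkfb4 averaged 1.13 ± 0.118 FPKM in AlCl3 and 1.15 ± 0.132 FPKM in control and was not called (limma adjusted p = 0.92). Pfkfb1 and Pfkfb2 were under the filter. Pfkfb1, the liver and muscle form, had 0.792, 0.806 and 0.972 FPKM in AlCl3 libraries, against 0.195, 0.251 and 0.272 FPKM in control libraries, on 167 reads in AlCl3 and 49 reads in control. It shares 123 exon bases with Apex2 on the opposite strand, which held 1451 reads in AlCl3 and 393 reads in control. Pfkfb2, the heart form, averaged 0.387 FPKM in AlCl3 and 0.280 FPKM in control, with overlap.

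In the second stretch of glycolysis all 6 genes were tested, of which 4 rose and 1 fell (83.3% called, against 61.3% of all genes tested). Pgk1, which makes the first ATP of this stretch, had 605, 597 and 580 FPKM in AlCl3 libraries, against 310, 269 and 250 FPKM in control libraries. The AlCl3 libraries, AlCl3 2 included, lay within a narrow band far above the controls. Pgk1 rose 2.15-fold, to 594 ± 12.9 FPKM in AlCl3 against 276 ± 30.6 FPKM in control, with a log2 fold change of 1.11 (SE 0.14, limma adjusted p = 0.00016). Pgk1 (ENSMUSG00000062070) spans bases 106187100 to 106203699 of chromosome X, plus strand, in GRCm38.

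Pgam1, phosphoglycerate mutase, had 350, 510 and 373 FPKM in AlCl3 libraries, against 215, 216 and 255 FPKM in control libraries, a log2 fold change of 0.83 (SE 0.18, limma adjusted p = 0.0028). Pkm, the pyruvate kinase gene whose spliced forms cannot be told apart in a value per gene, had 575, 695 and 597 FPKM in AlCl3 libraries, against 341, 357 and 287 FPKM in control libraries. It rose 1.89-fold, with a log2 fold change of 0.92 (SE 0.16, limma adjusted p = 0.00078). In both genes every AlCl3 library was above every control library. Pkm shares 767 exon bases with the unnamed model Gm49759 on the same strand, which held 2065 reads in AlCl3 and 837 reads in control, while Pkm held 149101 reads in AlCl3 and 83509 reads in control.

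Enolase makes phosphoenolpyruvate, and its widespread form Eno1 and neuron-type form Eno2 moved in opposite directions. Eno1 had 280, 341 and 307 FPKM in AlCl3 libraries, against 177, 184 and 160 FPKM in control libraries, a log2 fold change of 0.83 (SE 0.14, limma adjusted p = 0.00067). Eno2 had 4.21, 13.0 and 6.79 FPKM in AlCl3 libraries, against 21.3, 27.1 and 27.5 FPKM in control libraries. It fell 3.16-fold, with a log2 fold change of -1.66 (SE 0.30, limma adjusted p = 0.0012), and of -2.04 without AlCl3 2, its highest AlCl3 library. The share of Eno2 in the summed FPKM of the Eno1 and Eno2 rows, which leaves out Eno3 and the near-identical copies of Eno1 described below, was 2.44% ± 1.12 in AlCl3 and 12.7% ± 1.98 in control (exact two-sided permutation p = 0.1).

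**Figure D2:**
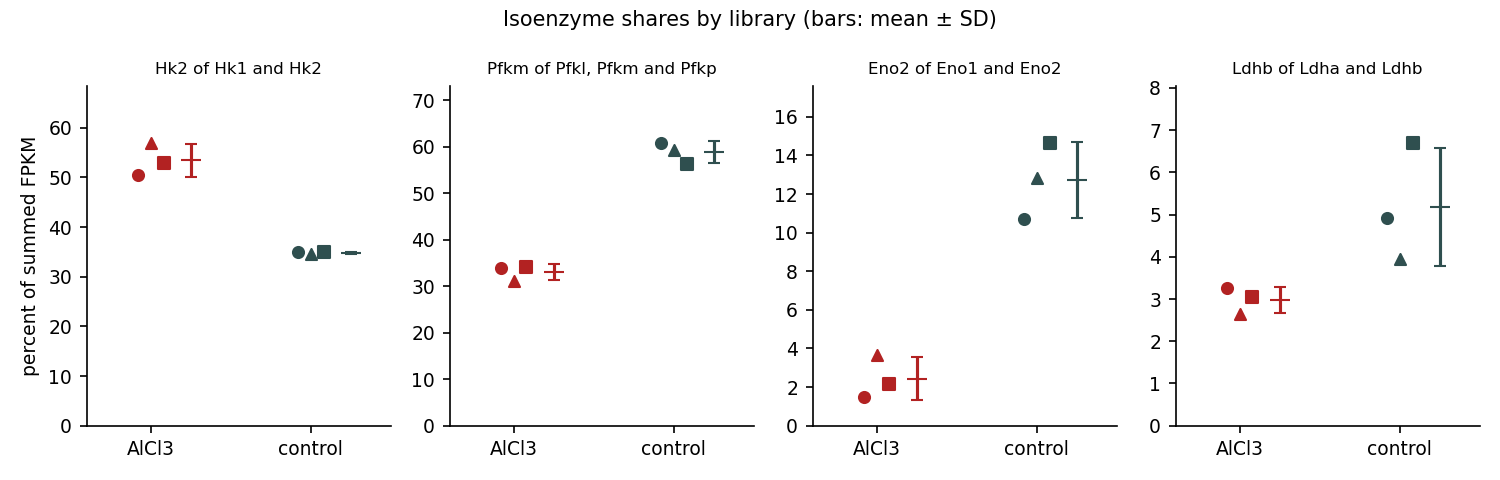
Share (percent of summed FPKM) of selected isoenzyme forms in each library, AlCl3 left of control on an axis from 0, with the mean ± SD of the group beside its points. The share of Pfkm is 31.2% to 34.1% in AlCl3 and 56.3% to 60.9% in control, and that of Hk2 50.4% to 57.0% in AlCl3 and 34.5% to 35.0% in control.

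Gapdh, the dehydrogenase between the triose phosphates and Pgk1, is often used as a reference gene. It had 26.0, 44.6 and 26.8 FPKM in AlCl3 libraries, against 25.6, 27.7 and 29.9 FPKM in control libraries, with overlap and no call (log2 fold change 0.18, limma adjusted p = 0.45; -0.07 without AlCl3 2). These levels lie far under those of its neighbours in the pathway, and most reads of its sequence stood under copies of the gene. The Gapdh row held 6301 reads in AlCl3 and 5844 reads in control, which is 4.49% in AlCl3 and 4.80% in control of the reads of Gapdh and its near-identical annotated copies, of which 80 have a row. A single processed pseudogene, Gm13394, which is 99.9% identical to Gapdh over the aligned bases, held 111458 reads in AlCl3 and 96112 reads in control, 79.4% and 79.0% of the family. Gapdh with all copies came to 2957 ± 600 RPM, the reads scaled to library size, in AlCl3 and 2389 ± 160 RPM in control (SD, n = 3 each). With the reads of the copies added to the gene before the fit, an alternative chosen after seeing the data, the log2 fold change of Gapdh was 0.29 (limma adjusted p = 0.19).

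Eno1 shared its reads in the same way. Its own row held 79820 reads in AlCl3 and 47480 reads in control, 58.8% and 59.3% of its family, while the near-identical Eno1b held 28362 reads in AlCl3 and 16432 reads in control and Gm4735 27132 reads in AlCl3 and 15880 reads in control. The log2 fold change of Eno1 was 0.84 with the copies added. In Pgk1, Pgam1, Pkm, Ldha and Tpi1 the copies held between 0.106% and 5.48% of the gene's own reads in AlCl3. The level of Gapdh and Eno1 in FPKM is therefore uncertain, and the values given for Gapdh are those of its row.

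**Figure D3:**
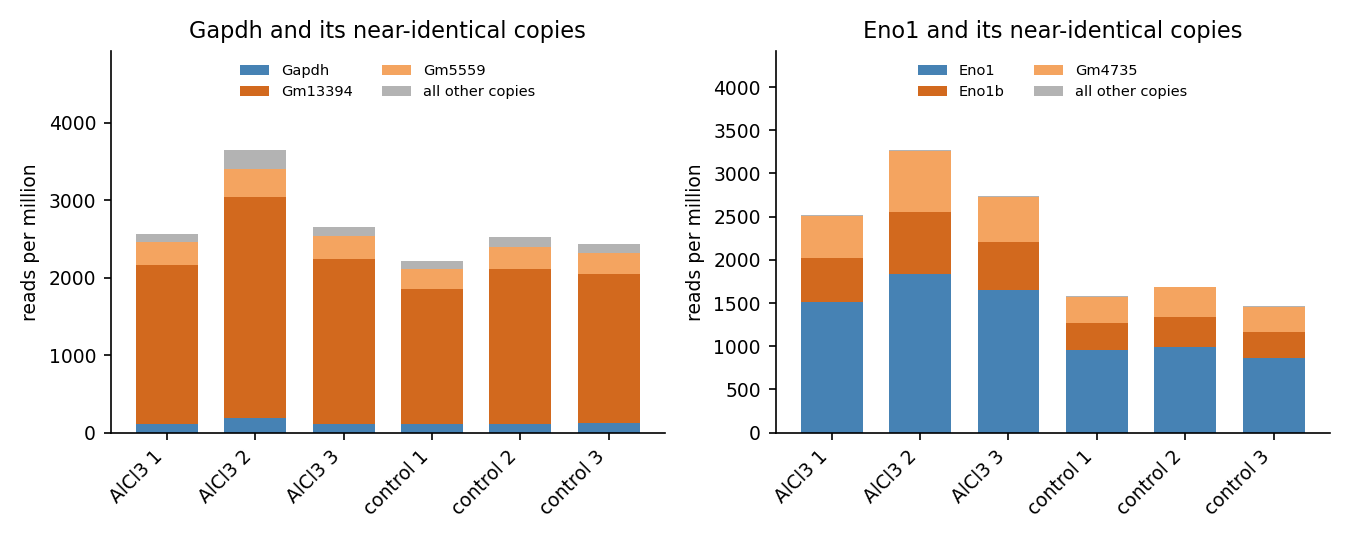
Stacked bars of RPM for the gene's own row and its near-identical copies, for Gapdh (left) and Eno1 (right), in each library, AlCl3 libraries left of control libraries. For Gapdh the pseudogene Gm13394 makes up 79.4% of the family's reads in AlCl3 and 79.0% in control, and for Eno1 the gene's own row makes up 58.8% in AlCl3 and 59.3% in control.

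Of the 5 lactate genes, 4 were tested, of which 2 rose and 1 fell (75.0% called, against 61.3% of all genes tested). Ldha, the lactate dehydrogenase subunit that favours lactate production, had 706, 899 and 703 FPKM in AlCl3 libraries, against 365, 395 and 297 FPKM in control libraries. Each AlCl3 library stood far above each control library, with means of 769 ± 112 FPKM in AlCl3 and 352 ± 50.2 FPKM in control (SD, n = 3 each). Ldha rose 2.18-fold, with a log2 fold change of 1.12 (SE 0.18, limma adjusted p = 0.00047). It lies on the plus strand of chromosome 7 from 46841475 to 46855627 in GRCm38 (ENSMUSG00000063229). Ldhb, the subunit that favours the return to pyruvate, had 23.7, 24.4 and 22.0 FPKM in AlCl3 libraries, against 18.8, 16.3 and 21.3 FPKM in control libraries. The groups did not overlap, but the log2 fold change of 0.31 missed the threshold (limma adjusted p = 0.060) and passed it without control 3 (adjusted p = 0.029). Ldhb made up 2.98% ± 0.311 of the summed FPKM of Ldha and Ldhb in AlCl3 and 5.19% ± 1.40 in control (exact two-sided permutation p = 0.1).

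Slc16a1 (MCT1) is the widespread monocarboxylate transporter. It had 45.8, 41.3 and 46.6 FPKM in AlCl3 libraries, against 37.2, 35.7 and 32.5 FPKM in control libraries, a log2 fold change of 0.33 (SE 0.11, limma adjusted p = 0.029). This was the least stable of the 18 calls. It was lost without AlCl3 1 (adjusted p = 0.12), AlCl3 3 (0.098), control 2 (0.076) or control 3 (0.093), and with the GC and length trend removed its log2 fold change was -0.03 (adjusted p = 0.78). Slc16a3 (MCT4), the exporter typical of strongly glycolytic cells, was under the filter, with 0.224, 0.512 and 0.153 FPKM in AlCl3 libraries, against 0.510, 0.868 and 1.04 FPKM in control libraries, so its values overlapped narrowly.

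Bsg, or basigin, is the membrane glycoprotein that escorts both transporters to the cell surface. Bsg had 346, 453 and 320 FPKM in AlCl3 libraries, against 618, 663 and 748 FPKM in control libraries. All AlCl3 values were below all control values, and Bsg fell 1.81-fold, to 373 ± 70.6 FPKM in AlCl3 against 676 ± 65.9 FPKM in control, a log2 fold change of -0.87 (SE 0.18, limma adjusted p = 0.0022; -0.43 with the GC and length trend removed, still past the threshold). Bsg per summed FPKM of Slc16a1 and Slc16a3 was 8.40 ± 2.14 in AlCl3 and 18.9 ± 3.01 in control, without overlap (exact two-sided permutation p = 0.1). It lies on the plus strand of chromosome 10 from 79704491 to 79711969 in GRCm38 (ENSMUSG00000023175).

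**Figure D4:**
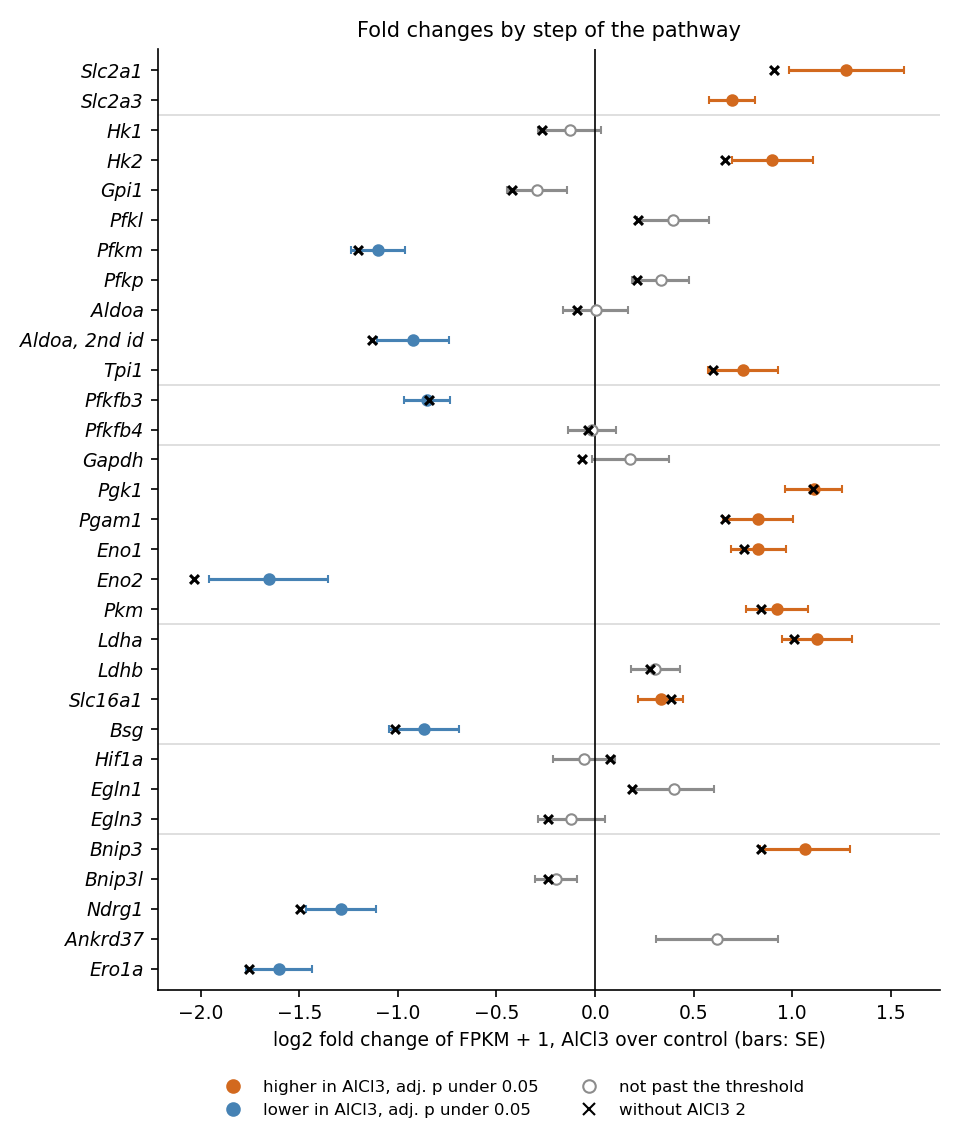
Log2 fold change of FPKM + 1, AlCl3 over control, for the 31 rows tested, by step of the pathway from top to bottom. Points are the fitted values with SE as bars, filled where the limma adjusted p is under 0.05, and crosses give the value without AlCl3 2. Ldha stands at 1.12 and Bsg at -0.87, and Eno2 moves to -2.04 without AlCl3 2.

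The oxygen-sensing genes tested, 3 in number, were not called, while 61.3% of all genes tested were. Hif1a, the widespread HIF alpha subunit, had 24.3, 18.4 and 24.9 FPKM in AlCl3 libraries, against 20.6, 22.0 and 27.8 FPKM in control libraries, with overlap and a fitted log2 difference of -0.06 (limma adjusted p = 0.77). The factor is known to be regulated mainly at the protein level, which was not measured. Epas1, the other widely studied alpha subunit, was not analysed here. Egln1 (PHD2), the main prolyl hydroxylase acting on HIF, had 35.6, 60.8 and 41.5 FPKM in AlCl3 libraries, against 27.8, 36.1 and 38.1 FPKM in control libraries, and missed the threshold (log2 fold change 0.40, limma adjusted p = 0.11), though it passed without AlCl3 1 (adjusted p = 0.046). Egln3 (PHD3), a hydroxylase gene that HIF itself induces, had 1.34, 2.32 and 1.90 FPKM in AlCl3 libraries, against 2.24, 1.58 and 2.48 FPKM in control libraries, and was not called (log2 fold change -0.12, adjusted p = 0.55). With the GC and length trend removed, Hif1a was past the threshold at -0.42 (adjusted p = 0.0080) and Egln1 at 0.75 (adjusted p = 0.0041).

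Among the 7 hypoxia-induced genes of other functions, 5 were tested, of which 1 rose and 2 fell (60.0% called, against 61.3% of all genes tested). Bnip3, a mitochondrial protein of mitophagy and cell death, had 17.9, 36.7 and 28.2 FPKM in AlCl3 libraries, against 13.6, 12.6 and 10.4 FPKM in control libraries. The groups did not overlap, AlCl3 2 being the highest, and Bnip3 rose 2.26-fold with a log2 fold change of 1.07 (SE 0.23, limma adjusted p = 0.0029). Its relative Bnip3l averaged 19.4 ± 1.19 FPKM in AlCl3 and 22.5 ± 0.394 FPKM in control. That difference was not called (log2 fold change -0.20, adjusted p = 0.13), and it was called with the GC and length trend removed (-0.55, adjusted p = 0.0031).

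Ero1a, the oxidase of the endoplasmic reticulum that passes disulfides to nascent proteins, had 26.3, 40.2 and 32.3 FPKM in AlCl3 libraries, against 90.4, 99.5 and 113 FPKM in control libraries. The highest AlCl3 library stood far below the lowest control library, and Ero1a fell 3.07-fold, to 32.9 ± 6.97 FPKM in AlCl3 against 101 ± 11.6 FPKM in control, with a log2 fold change of -1.60 (SE 0.17, limma adjusted p = 4.1e-05). Ero1a (ENSMUSG00000021831) lies on the minus strand of chromosome 14 from 45283087 to 45318771 in GRCm38. Ndrg1, a stress-responsive gene often used as a hypoxia marker, had 7.19, 12.7 and 8.64 FPKM in AlCl3 libraries, against 23.3, 25.2 and 23.8 FPKM in control libraries. It fell 2.53-fold without overlap, with a log2 fold change of -1.29 (SE 0.18, limma adjusted p = 0.00022), and lies on the minus strand of chromosome 15 from 66929318 to 66969640 in GRCm38 (ENSMUSG00000005125).

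Ankrd37, an ankyrin repeat gene induced by HIF, had 0.775, 3.92 and 1.48 FPKM in AlCl3 libraries, against 0.900, 0.923 and 0.635 FPKM in control libraries. It passed the filter through AlCl3 2, was not called (log2 fold change 0.62, limma adjusted p = 0.11), was called without AlCl3 1 (adjusted p = 0.013) and was under the filter without AlCl3 2. It overlaps Ufsp2 on the opposite strand by 57 exon bases, where Ufsp2 held 4250 reads in AlCl3 and 2666 reads in control and Ankrd37 142 reads in AlCl3 and 64 reads in control. Car9, the membrane carbonic anhydrase that is a standard hypoxia marker, was under the filter with 0.222, 0.160 and 0.228 FPKM in AlCl3 libraries, against 0.627, 0.874 and 1.37 FPKM in control libraries, on 23 reads in AlCl3 and 113 reads in control. It shares 214 exon bases with Gm12454, which held 7 reads in AlCl3 and 64 reads in control. Adm, the peptide hormone adrenomedullin, held 0, 2 and 2 reads in AlCl3 libraries, against 5, 5 and 10 reads in control libraries. With no filter on low values, Car9 and Adm were called lower (adjusted p = 0.014 and 0.042) and Pfkfb1 higher (adjusted p = 0.0019), while Aldoc, Pfkfb2 and Slc16a3 were not called.

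The departure of AlCl3 2 from AlCl3 1 and AlCl3 3 was uneven over the members. Its level over the mean of those libraries was 3.48 in Ankrd37, 2.37 in Eno2, 2.16 in Slc2a1, 1.79 in the second Aldoa identifier, 1.69 in Hk2 and in Gapdh, 1.61 in Ndrg1, 1.59 in Bnip3 and 1.58 in Egln1. It was 1.01 in Pgk1 and 0.750 in Hif1a. Several genes of the hypoxia list described next went with it. Ddit4, an inhibitor of mTOR signalling induced by stress and low oxygen, had 49.8, 182 and 70.0 FPKM in AlCl3 libraries, against 100.0, 103 and 143 FPKM in control libraries. Hilpda, a lipid droplet protein gene induced by HIF, had 38.2, 86.4 and 38.4 FPKM in AlCl3 libraries, against 46.6, 37.0 and 32.7 FPKM in control libraries. AlCl3 2 was the highest of its group in 28 of the 46 genes of that list tested (60.9%), and in 14 of 43 genes of the glucose list (32.6%). Ddit4 and Hilpda were chosen after their values were seen. AlCl3 2 is also the least deep library, and the part of depth in this departure was not tested.

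**Figure D5:**
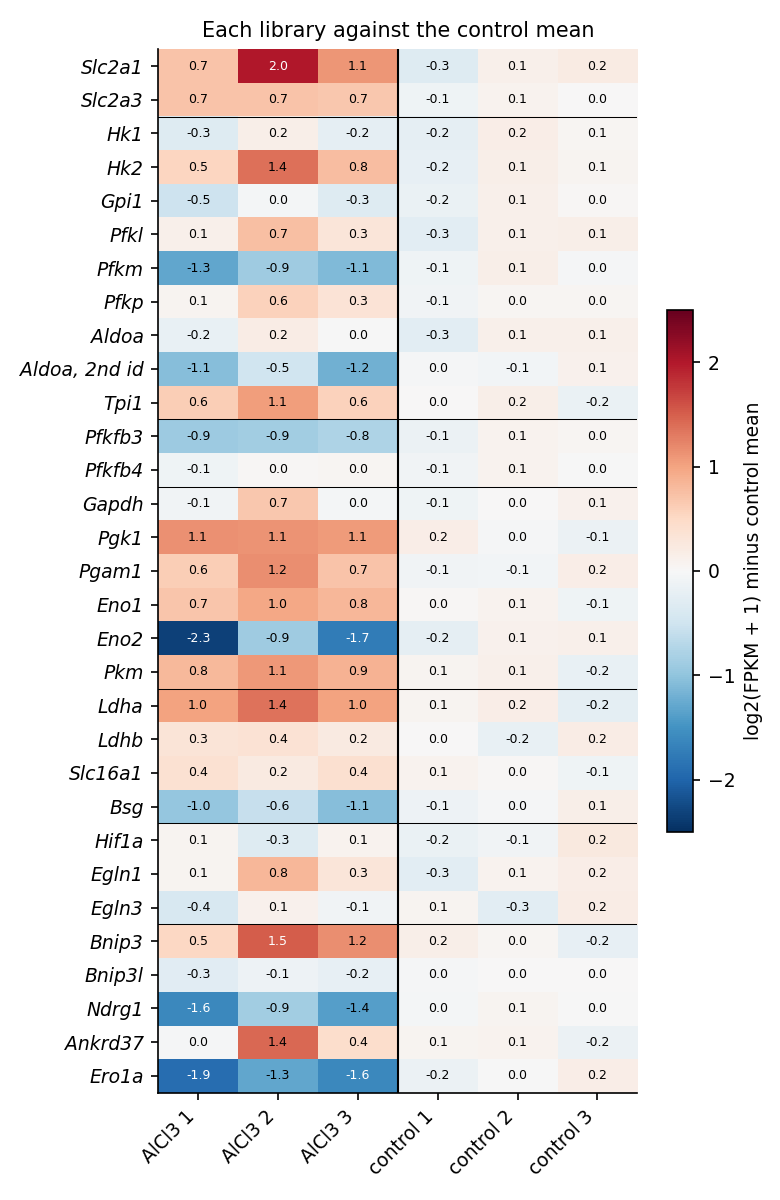
Each library's log2(FPKM + 1) minus the control mean (colour and printed value, red above and blue below) for the 31 rows tested, AlCl3 libraries left of control libraries. AlCl3 2 is the highest of its group in 25 of 31 rows, while in Pgk1 its level is 1.01 times and in Hif1a 0.750 times the mean of AlCl3 1 and AlCl3 3.

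Other genes of glucose metabolism, 63 by name (further transporters, pyruvate oxidation, the pentose phosphate route, glycogen, gluconeogenesis and sugar interconversion), had 54 rows, of which 43 were tested. Of these, 14 were higher and 11 lower (58.1% called, against 61.3% of all genes), with a median log2 fold change of 0.09, against 0.03 over all genes. That median was 0.059 without AlCl3 1, 0.31 at a mean FPKM of at least 5, 0.21 after rescaling to TPM and -0.026 with the GC and length trend removed. Among those that rose, Gbe1, the glycogen branching enzyme, averaged 2.91 ± 0.253 FPKM in AlCl3 and 0.568 ± 0.141 FPKM in control (log2 fold change 1.32), its control mean being under the filter. Dld, a shared subunit of the pyruvate dehydrogenase complex, averaged 43.4 ± 3.07 FPKM in AlCl3 and 23.1 ± 5.55 FPKM in control (0.90), and Pdha1, the catalytic subunit of the same complex, 36.1 ± 3.82 FPKM in AlCl3 and 22.9 ± 1.60 FPKM in control (0.63). G6pdx, which opens the pentose phosphate route, averaged 60.1 ± 4.88 FPKM in AlCl3 and 38.2 ± 1.97 FPKM in control (0.64), and shares 418 exon bases with Ikbkg, whose reads were 2028 in AlCl3 and 799 in control.

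Among those that fell, Pdk2, a kinase that switches pyruvate dehydrogenase off, averaged 0.506 ± 0.144 FPKM in AlCl3 and 5.55 ± 0.539 FPKM in control (log2 fold change -2.12). Its AlCl3 mean was under the filter, which it passed through the control libraries alone. Slc2a8, a glucose transporter of inner membranes, averaged 1.05 ± 0.248 FPKM in AlCl3 and 8.87 ± 1.38 FPKM in control (-2.27). Pck2, the mitochondrial enzyme that makes phosphoenolpyruvate, averaged 21.7 ± 2.86 FPKM in AlCl3 and 70.7 ± 6.73 FPKM in control (-1.66). The genes named from this list are among those with the smallest p in each direction.

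Other genes of the response to low oxygen, 60 by name, had 57 rows, of which 46 were tested. Of these, 9 were higher and 16 lower (54.3% called, against 61.3% of all genes, 31.2% higher and 30.2% lower), with a median log2 fold change of -0.23, against 0.03 over all genes. The median of this list was -0.051 without AlCl3 1, -0.12 after rescaling to TPM and -0.13 with the GC and length trend removed. The counts also moved. After rescaling to TPM, 10 were higher and 11 lower of 47 tested, against 3997 and 2974 of 12892 over all genes. Without AlCl3 1, 8 were higher and 12 lower of 46, against 2891 and 2914 of 11198 over all genes. Without AlCl3 2 or without control 1, 8 were higher and 20 lower of 46. Over all genes, 3607 were higher and 3460 lower of 11230 without AlCl3 2, and 3367 and 3427 of 11208 without control 1. Tfrc, the transferrin receptor, whose mRNA is also stabilised when cell iron is low, averaged 27.0 ± 4.81 FPKM in AlCl3 and 1.83 ± 0.264 FPKM in control (log2 fold change 3.30). Kdm3a, a histone demethylase, averaged 7.24 ± 1.02 FPKM in AlCl3 and 2.67 ± 0.433 FPKM in control (1.16). Ak4, a mitochondrial adenylate kinase, averaged 9.18 ± 1.67 FPKM in AlCl3 and 3.59 ± 0.161 FPKM in control (1.14), and Nampt, which makes an NAD precursor, 18.2 ± 1.42 FPKM in AlCl3 and 9.81 ± 1.38 FPKM in control (0.83).

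Among the genes of this list that fell, Edn1, the peptide endothelin, averaged 0.265 ± 0.0392 FPKM in AlCl3 and 5.81 ± 1.07 FPKM in control (log2 fold change -2.42). Its AlCl3 mean was under the filter, which it passed through the control libraries alone, with 27 reads over the 3 AlCl3 libraries and 634 reads over the 3 control libraries. Loxl2, a collagen cross-linking oxidase, averaged 5.34 ± 0.945 FPKM in AlCl3 and 15.7 ± 2.94 FPKM in control (-1.39). P4ha1, the collagen prolyl hydroxylase subunit, averaged 44.2 ± 6.59 FPKM in AlCl3 and 93.1 ± 16.6 FPKM in control (-1.05), and Vldlr, a lipoprotein receptor, 12.4 ± 1.85 FPKM in AlCl3 and 23.9 ± 3.29 FPKM in control (-0.90). Vegfa, the vascular growth factor and a widely used HIF target, averaged 66.5 ± 7.89 FPKM in AlCl3 and 72.0 ± 4.72 FPKM in control and was not called (log2 fold change -0.12, limma adjusted p = 0.45), a gene given here after its values were seen.

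The median GC content, taken from the longest annotated transcript of each gene, was 52.6% in the 31 rows tested. It was 49.7% in the 11183 genes tested that had a GC value. The median was 51.9% in the members that rose, against 47.5% in all such genes that rose. In the members that fell it was 54.7%, against 53.3% in all such genes that fell.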

How the data were processed

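RNA-seq values of 3 AlCl3 and 3 control libraries of TM4 cells, grouped by their titles, were used. The deposited values are FPKM made by the authors; HISAT2 2.1.0 and the build GRCm38 are named in the submitters' processing notes. The sources used here name no counter, strand setting or annotation for the counting. Symbols, coordinates and exon lengths came from GENCODE mouse release M21, and Ero1a was matched through its older symbol Ero1l. FPKM steps gave whole reads for 98.9% of genes in each library, within 0.01 reads, and library sizes of 13583554 to 17608615 reads. Those reads describe depth, overlaps and copies and entered no count model.

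limma 3.58.1 (R 4.3.3) was run with a variance trend, without covariates, on log2(FPKM + 1) of genes whose mean over the 6 libraries reached 1 FPKM. P-values are two-sided, Benjamini-Hochberg adjusted over all 11202 genes tested, with a threshold of 0.05, and fold changes on this scale understate those of low genes. Exact permutation tests of 3 against 3 cannot give a two-sided p under 0.1. The fit was tested on simulated data with known changes. Near-identical copies were annotated transcripts aligned by BLAST+ 2.17.0 over at least 100 bases and 50% of their length at 95% identity or more. Promoter windows are RefSeq's.

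All members with a row are named, and of each further list the 4 higher and 4 lower genes with the smallest p, of which 1 is not reported here. Members and lists were chosen with earlier results of these data known. Alternatives covered the pseudocount, the filter, scaling, GC content and length, a replicate block, each library left out and copies added.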

Additional observations from a re-analysis of the deposited data

How the results depend on the processing

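Of the 18 called members, 17 kept their direction and their side of the threshold under every alternative in which they could be tested; the exception was Slc16a1, whose log2 fold change was -0.027 with the GC and length trend removed. Slc2a3 could not be tested at a mean FPKM of at least 5 or without any single AlCl3 library. Leaving out each library gave 9 to 13 higher and 7 to 8 lower members, and 9 to 14 higher genes in the further glucose list, the lowest without control 2. Over all genes the same runs gave 2891 to 3607 higher and 2872 to 3460 lower, so the background moved too. At a mean FPKM of at least 5 the further glucose list had 7 lower genes of 28 tested, against 2260 of 7168 over all genes. Some uncalled members changed sign. Hk1 had 0.16 and Pfkfb4 0.23 with the GC and length trend removed, and rescaling to TPM, which moved the median of all genes to 0.13, gave 0.068 for Pfkfb4 and 0.063 for Hif1a. Leaving out a library gave log2 fold changes of -0.13 to 0.093 for Aldoa, -0.057 to 0.031 for Pfkfb4, -0.066 to 0.31 for Gapdh, -0.14 to 0.077 for Hif1a and -0.25 to 0.014 for Egln3. The cause of these changes was not tested. With a replicate block, 14 members were higher and 8 lower, and 3778 genes higher and 3597 lower in all. Same-numbered libraries correlated in their deviations at 0.202, 0.0968 and 0.385. Each control library correlated most with the AlCl3 library of its own number, but AlCl3 2 correlated more with control 1 (0.168). These values do not settle whether the numbers pair the libraries. Adding the copies' reads was chosen after seeing the data and changed no call among the 12 members with a value under it. Among the members under the filter, Aldoc and Adm held at most 10 reads in any library.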

Other observations

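A few further genes of the same metabolism, named after their values were seen, add to the levels above. Eno3, the muscle-type enolase, had 168, 192 and 164 FPKM in AlCl3 libraries, against 114, 121 and 94.7 FPKM in control libraries, and rose by 0.67 on the log2 scale of FPKM + 1 (limma adjusted p = 0.0027). Pdk1, a pyruvate dehydrogenase kinase that HIF is known to induce, averaged 11.1 ± 1.16 FPKM in AlCl3 and 7.85 ± 0.664 FPKM in control (SD, n = 3 each) and rose by 0.45 (adjusted p = 0.010). With the GC and length trend removed its log2 fold change was 0.29 and it did not pass the threshold (limma adjusted p = 0.106). Of its relatives, Pdk3 also rose (0.52, limma adjusted p = 0.0038), while Pdk2 and Pdk4 fell (-2.12 and -1.11, limma adjusted p = 3.7e-06 and 0.00018). Mpc1, a subunit of the carrier that takes pyruvate into mitochondria, averaged 1.09 ± 0.258 FPKM in AlCl3 and 3.89 ± 0.965 FPKM in control and fell, with a log2 fold change of -1.22 (adjusted p = 0.00024). It shares 480 exon bases with 4930506C21Rik, which held 5 reads in AlCl3 and 7 reads in control.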
